A study of Mus musculus with 54 samples.

Results

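Type B intercalated cells were followed through single-cell and single-nucleus libraries of adult mouse kidney in 13 groups that differed in preparation, strain or sex. A barcode was taken as a type B intercalated cell or nucleus when it carried at least 1 UMI (a counted RNA molecule) of Slc26a4, at least 1 UMI over Atp6v1g3 and Atp6v0d2, and 0 UMIs of Slc4a1. This rule found 2681 of 175959 barcodes, or 1.52%, in 39 libraries made with the 10x Chromium droplet system. For comparison, 1849 barcodes carried Slc4a1 with a pump subunit and no Slc26a4 and were taken as type A intercalated cells. Another 6734, with at least 2 UMIs of Aqp2 and none of Slc26a4, Slc4a1, the pump subunits or Slc12a3, were taken as principal cells. Proximal tubule cells were 60436 barcodes with UMIs of both Slc34a1 and Lrp2 and none of the pump subunits. Members were chosen by the UMI counts of the 4 genes of the rule, so the levels of these genes in the 10x libraries are given as a description.

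Intercalated cells of the collecting duct and connecting tubule regulate the acid-base balance of the body through a proton pump, the V-ATPase, and a bicarbonate exchanger on opposite faces of the cell. Type A cells place the pump on the urine side and secrete acid, with the anion exchanger AE1 (Slc4a1) on the blood side. Type B cells secrete bicarbonate through pendrin (Slc26a4), a chloride-bicarbonate exchanger of the urine side, and they return chloride together with the exchanger AE4 (Slc4a9). Both forms depend on the transcription factor Foxi1 and lie among principal cells, which carry the water channel Aqp2 and the sodium channel ENaC.

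The libraries came from whole kidneys of mice untreated for this purpose, with 3 libraries per group and 1 mouse per replicate. Male C57BL/6J mice of the AFAPIL.1DEL line, littermates aged 19 weeks, gave suspensions made with a cold-active protease on ice (cold) or with a warm enzyme kit (warm). Each suspension was run fresh, after cryopreservation for 6 weeks or after methanol fixation for 3 months. Littermate Balb/c males aged 18 weeks gave cold fresh cells and nuclei sorted after 3 washes at 500 g (3x500g). Female wild-type Balb/c mice aged 15 weeks had earlier served as breeders. These females gave cold fresh cells, cells cryopreserved for 2 weeks, and nuclei by 3x500g, by 1 wash at 2000 g with sorting (1x2000g) and by a sucrose cushion without sorting. Bulk RNA-seq covered 5 groups of 3 libraries. All nuclei and the bulk RNA of whole kidney came from flash-frozen kidneys, whereas suspensions were made from unfrozen ones. The male experiments differed from each other in strain and age, and the Balb/c experiments in sex, age, use as breeders and droplet chemistry (v2 for both sets of males, v3 for the females). The parts of these in a difference between experiments cannot be told apart, so comparisons were made within an experiment.

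The 10x libraries held 782 to 9308 barcodes and 983522 to 35170947 UMIs, and the members' median depth ran from 454 to 4512 UMIs. Across 741 pairs of libraries, at most 101 barcode sequences were shared, up to 2.05% of the smaller library, and 17 pairs shared 1 member barcode each. Genes detected in fewer than 10 cells of a library had been removed from it by the authors and stood at 0 in the merged tables. Slc4a1 was among the removed genes in warm methanol libraries 1 and 3, so their 12 members had no screen against type A. The set Slc4a9, Insrr and Hmx2, which the rule did not use, was kept whole in 32 libraries. Tests of gene levels used only genes kept in every library compared, and libraries with at least 10 members, which were 35 of the 39.

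The genes of the rule lie on 4 chromosomes in the mouse assembly GRCm38 (GENCODE vM21). Slc26a4 spans chr12:31519827-31559969 on the minus strand, Atp6v1g3 spans chr1:138273738-138289462 on the plus strand, Atp6v0d2 spans chr4:19876841-19922605 on the minus strand and Slc4a1 spans chr11:102348824-102366203 on the minus strand. Those gene models overlap no other. Of the type B genes outside the rule, Insrr (chr3:87796951-87816101, plus strand) lies within Pear1 on the opposite strand. Hmx2 (chr7:131548773-131558014, plus strand) lies within the long Fgfr2 model on the opposite strand. Whether the counting used strand was not given in the sources used here, so reads of Insrr and Pear1, or of Hmx2 and Fgfr2, may have been exchanged.

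The label was set beside Slc4a9, Insrr (the insulin receptor-related receptor, an alkali sensor) and Hmx2 (a homeobox transcription factor). These genes came from a type B list chosen with earlier results of these data known. The shares below are thus a description and not independent support for the label. In the 32 libraries that kept all of them, 2397 of 2620 members (91.5%, Wilson 95% interval 90.4 to 92.5) carried a UMI of at least 1 of the 3 genes. Intervals here cover counting error only. The share was 75.4% in C57BL/6J cells, 78.7% in male Balb/c cells, 97.6% in male nuclei, 88.4% in female cells and 94.6% in female nuclei. A UMI of each of the 3 genes was found in 26.1%, 15.2%, 31.2%, 42.1% and 60.3% of the members, in the same order. Among principal cells 1.30% carried any of the 3 genes and among proximal tubule cells 1.25%, with median depths of 2624 and 3510 UMIs beside 3207.5 in the members. Both classes had been chosen without UMIs of the pump subunits, and principal cells also without Slc26a4 and Slc4a1. Barcodes with intercalated-cell RNA were thus in part removed from them beforehand, so these low shares are a description. The 3 genes were not exclusive to type B, since 54.4% of type A barcodes carried at least 1 of them. Oxgr1, the receptor for oxoglutarate and also on the type B list, went the other way, with the higher level in type A barcodes in 28 of 32 libraries (medians of 2.13 per 10000 UMIs in type B and 2.91 in type A).

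Slc26a4 counts were low, and 403 members (15.0%) passed the rule with a single UMI. Members just inside the threshold, with 1 UMI, carried Slc4a9, Insrr or Hmx2 in 52.5% of cases, against 98.1% of members with 2 or more. In female nuclei only 13 of 90 single-UMI members (14.4%) carried them, compared with 94.6% in male nuclei. Just outside the rule, 2588 barcodes had Slc26a4 but no UMI of the pump subunits, and 5.36% of them carried the 3 genes. Another 2468 barcodes had at least 2 pump UMIs with neither Slc26a4 nor Slc4a1, and 34.4% of those measured carried them. The 82 barcodes with both Slc26a4 and Slc4a1, left out by the rule, carried them in 85.3% of those measured.

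Slc26a4 UMIs were also present in proximal tubule barcodes, which should lack the gene. Their share ran from 0.138% to 0.746% over C57BL/6J libraries, from 0.172% to 0.595% in male cells, from 0.490% to 1.64% in female cells, from 1.19% to 2.40% in male nuclei and from 2.35% to 5.49% in female nuclei. RNA of other segments in turn appeared in the members. Members without Slc4a9, Insrr and Hmx2 held 64.2 UMIs of the 5 proximal markers (Lrp2, Slc34a1, Kap, Miox and Slc27a2) per 10000 in female nuclei, against 11.8 in members with them. In female cells the connecting tubule markers stood at 458 and 68.7 per 10000, respectively. These were large contrasts, and others were small. Connecting tubule markers stood at 113 and 107 in C57BL/6J cells, and proximal markers at 40.6 and 33.9 in male nuclei, in the same order.

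**Figure D1:**
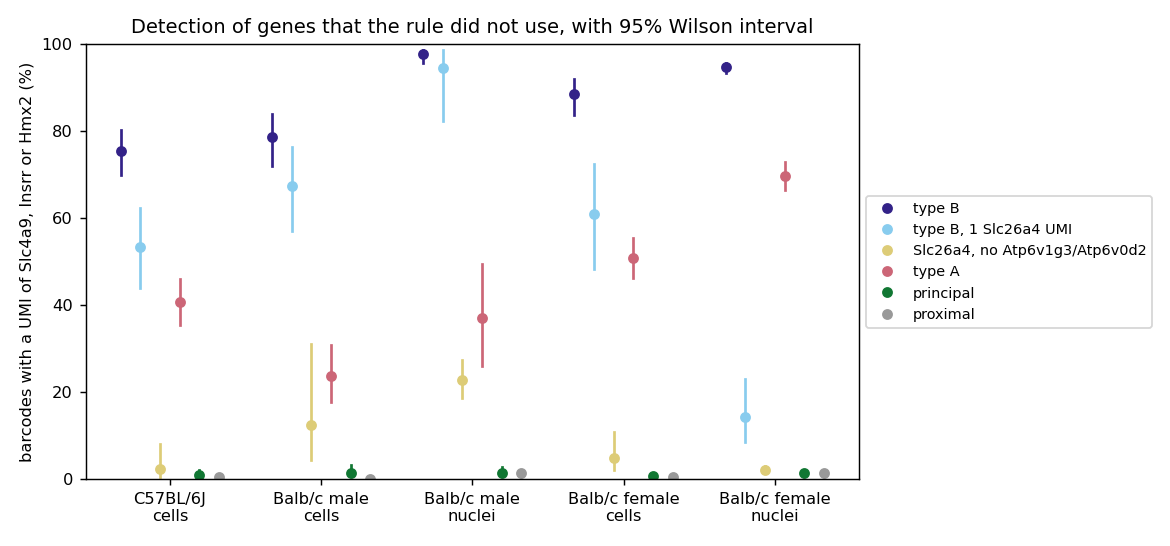
Share of barcodes in percent with a UMI of Slc4a9, Insrr or Hmx2, for all members, members with 1 Slc26a4 UMI, barcodes with Slc26a4 but no pump subunit, and type A, principal and proximal barcodes, by experiment, with Wilson 95% intervals as lines. All members lie between 75.4% and 97.6%, type A barcodes between 23.7% and 69.7%, and barcodes with Slc26a4 but no pump subunit between 2.22% and 22.8%.

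Levels of the type B genes are given as UMIs per 10000 non-mitochondrial UMIs, summed over the members of a library, with libraries in the order 1, 2 and 3. Slc26a4 was at 15.2, 12.7 and 15.6 in C57BL/6J cold fresh cells, and at 13.8, 20.1 and 12.8 in warm fresh cells. It was at 23.8, 14.1 and 30.4 in male Balb/c cells and at 13.5, 16.9 and 19.6 in female cells. Nuclei were higher, with 52.2, 61.4 and 54.5 in males and, in females, 102, 90.1 and 89.5 in 3x500g, 97.6, 74.6 and 75.6 in 1x2000g and 61.5, 55.9 and 66.9 in sucrose nuclei. The nuclear values do not overlap those of any cell library, the highest of which was 30.4. These differences are in part set by the rule, which asked for an Slc26a4 UMI.

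Atp6v1g3, a subunit of the V-ATPase stalk, showed the opposite pattern, with 50 to 191 per 10000 over the cell libraries other than warm methanol 3 and 12.7 to 22.2 over the nuclear libraries. Warm methanol 3, which had only 2 members, was at 6.31. Malat1, a long noncoding RNA held in the nucleus, was at 547, 922 and 834 in C57BL/6J cold fresh members and at 214, 161 and 152 after methanol. It was at 633, 570 and 855 in male cells and at 2163, 1959 and 2071 in male nuclei. Slc4a9 was also higher in every nuclear library than in any cell library, whereas Insrr in the nuclei overlapped with the cells.

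**Figure D2:**
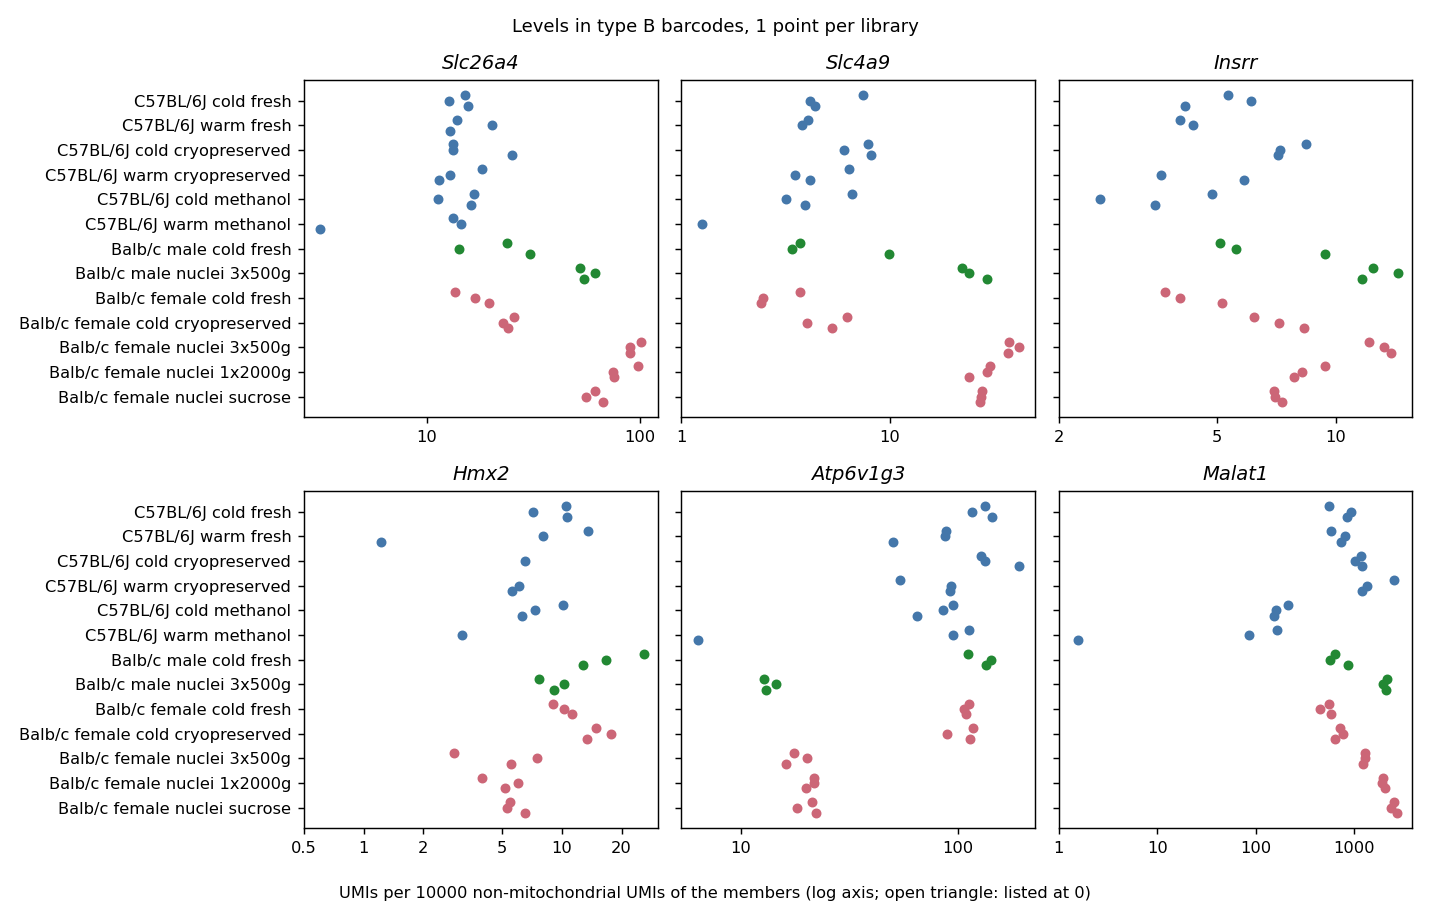
Levels in UMIs per 10000 non-mitochondrial UMIs of the members, on a log axis, of Slc26a4, Slc4a9, Insrr, Hmx2, Atp6v1g3 and Malat1, with 1 point per library and the 13 groups along the other axis. Genes not kept in a library have no point and open triangles mark a level of 0; the nuclear libraries lie above all cell libraries for Slc26a4, and below all of them but warm methanol 3 for Atp6v1g3.

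The remaining genes of the type B list, and the regulator Agtr1a, were sparse. Oxgr1 was at 2.93, 2.11 and 3.17 in C57BL/6J cold fresh cells, 0.851, 1.78 and 1.73 in male cells and 0.980, 1.71 and 1.21 in female cells. Slc4a8, a sodium-driven chloride-bicarbonate exchanger often placed in type B cells, reached at most 0.241 in any library. Cftr, a chloride channel, reached at most 0.219. Sctr, the secretin receptor, was removed from the C57BL/6J libraries and was at 0.252 to 0.664 in the nuclear libraries. Agtr1a, the angiotensin receptor, was at 0 in every cell library but 1, where a single UMI gave 0.173, and reached at most 0.255 in nuclei. At these low levels, differences in Slc4a8, Cftr, Sctr and Agtr1a between preparations may have been missed.

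Type B members were set beside type A barcodes of the same libraries as a description, since the rule separates both classes, and the genes named in this and the next paragraph were chosen after their values were seen. In 20 cell libraries with both classes, Igfbp5, an insulin-like growth factor binding protein, averaged 8.06 in type B and 0.649 in type A. Pcolce, an enhancer of procollagen processing, averaged 5.54 and 0.940, and the carbonic anhydrase gene Car15 3.30 and 0.269. Spink8 averaged 29.3 and 5.16 and the secreted phosphoprotein Spp1 (osteopontin) 40.7 and 11.2. All 5 genes were higher in type B in 20 of 20 libraries. So was Umod, a marker of the thick ascending limb, with 4.74 and 1.28, and the part of RNA from other segments in these differences was not tested. Jag1, a Notch ligand placed in the type A list from earlier knowledge, went the other way, with 2.59 in type B and 0.481 in type A, again in 20 of 20. The reverse held for Aqp6 (14.8 in type A, 0.496 in type B), the receptor tyrosine kinase Kit (5.86 and 0.461), Adgrf5 (9.58 and 0.660) and the defensin Defb1 (40.7 and 7.51).

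In 12 nuclear libraries the genes that separated the forms differed in part. Lsamp, a neural cell adhesion protein, averaged 98.0 in type B nuclei and 1.16 in type A nuclei, and Nbea, which acts in membrane traffic, 21.9 and 0.592. Hmx2 averaged 6.28 and 0.0107, Insrr 10.4 and 0.928, Hs3st5, a heparan sulfate sulfotransferase, 3.37 and 0.0290 and Slc9a9, a sodium-proton exchanger, 3.95 and 0.102. Type A nuclei were higher in Slc26a7 (6.30 and 0.0354), the transcription factor Dmrt2 (5.45 and 0.0367), Negr1 (7.50 and 0.123) and Aqp6 (3.73 and 0.0349). Each of these differences was in the same direction in 12 of 12 libraries. Against principal nuclei, Slc4a9 averaged 29.7 in type B and 0.0464, and the phosphodiesterase Pde4b 30.2 and 0.905. Aqp2, whose UMIs chose the principal barcodes, averaged 18.4 in principal nuclei and 0.697 in type B nuclei.

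The share of type B barcodes was compared between preparations by exact two-sided permutation tests over libraries within strata, and the ratio of type B to type A barcodes likewise, in 10 tests adjusted together. Cryopreserved suspensions had the higher share. In C57BL/6J cold suspensions the share was 0.637%, 0.833% and 0.887% fresh and 0.892%, 0.921% and 1.31% cryopreserved. In warm suspensions it was 0.373%, 0.519% and 0.383% fresh and 0.797%, 2.50% and 2.12% cryopreserved. In female cells it was 1.41%, 0.996% and 0.544% fresh and 1.75%, 1.81% and 1.60% cryopreserved. The groups did not overlap in any of the 3 strata, and the share rose by a mean of 1.09 on the log2 scale (p = 0.00025, adjusted p = 0.00125, exact permutation test, where the smallest p possible is 0.00025). That test left aliquots of 1 suspension unpaired. With the suspension number as a block in C57BL/6J, p was 0.00156 and adjusted p 0.00781 (exact permutation test), and the share was higher in 6 of 6 pairs.

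The ratio of type B to type A moved against that rise. Fresh C57BL/6J cold libraries held 1.15, 0.944 and 1.12 type B barcodes per type A barcode, and the cryopreserved ones 0.571, 0.294 and 0.52. Warm fresh libraries held 1.5, 1.41 and 2.75, and warm cryopreserved ones 0.169, 0.806 and 0.406. Female libraries held 1.97, 1.03 and 1.6 fresh and 0.184, 0.35 and 0.211 cryopreserved. In none of the strata did the groups overlap, and the mean log2 ratio fell by 2.00 (p = 0.00025, adjusted p = 0.00125, exact permutation test). With the suspension number as a block in C57BL/6J, p was 0.00156 and adjusted p 0.00781 (exact permutation test), and the ratio was lower in 6 of 6 pairs. Barcodes of the proximal tubule class, with UMIs of both Slc34a1 and Lrp2, numbered 642 to 1930 per C57BL/6J fresh library and 1425 to 2787 per female one. After cryopreservation they numbered 0 to 4 and 61 to 122. With that class left out of the total, the share was higher by 0.62 (adjusted p = 0.1025, exact permutation test). The class held only 652 of 2356 barcodes in C57BL/6J cold fresh library 1, whereas the paper placed most fresh cells in the proximal tubule. The class thus did not take in all proximal tubule cells, and their part in the higher share was not tested. The ratio of type B to type A is computed without the total of barcodes.

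Warm dissociation and methanol fixation gave smaller differences. Fresh warm libraries had the lower shares given above, a difference of -0.86 on the log2 scale with no overlap, whereas the cryopreserved stratum differed by 0.64 and the methanol stratum by -0.62. Over the 3 strata the difference was -0.28 (p = 0.345, adjusted p = 0.431, exact permutation test), but 0.16 for members with Slc4a9, Insrr or Hmx2. That of the type B to type A ratio was -0.24 (p = 0.512, adjusted p = 0.512, exact permutation test). Both tests permuted labels in each stratum separately. The strata hold aliquots of the same suspensions, which these p-values treat as separate samples. The direction of this ratio difference was not stable, with 0.26 after thinning to 500 UMIs, 0.37 with at least 2 Slc26a4 UMIs, 0.59 for members with Slc4a9, Insrr or Hmx2, 0.67 with type A counted as 0 where Slc4a1 was removed and 0.24 without warm methanol 2. Methanol libraries had shares of 0.583%, 0.664% and 0.454% cold and 0.689%, 0.211% and 0.256% warm, against fresh a difference of -0.34 (p = 0.24, adjusted p = 0.372, exact permutation test). The share was lower than in the fresh aliquot of the same suspension in 5 of 6 pairs, and with the suspension number as a block the adjusted p was 0.402 (exact permutation test, 64 exchanges of sign within pairs). Without warm methanol library 1 the share difference was -0.58 (adjusted p = 0.0333). The ratio differed by -0.59 (p = 0.412, adjusted p = 0.458, exact permutation test), and by 0.78 with type A counted as 0 where Slc4a1 was removed and 0.36 without warm methanol 2. It was higher after methanol in 3 of 4 pairs of aliquots and lower in 1, the warm pair, so its sign rests on that 1 library. The 3 warm methanol libraries held 10, 7 and 2 members, and the Wilson interval of the last share ran from 0.0702% to 0.928%.

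**Figure D3:**
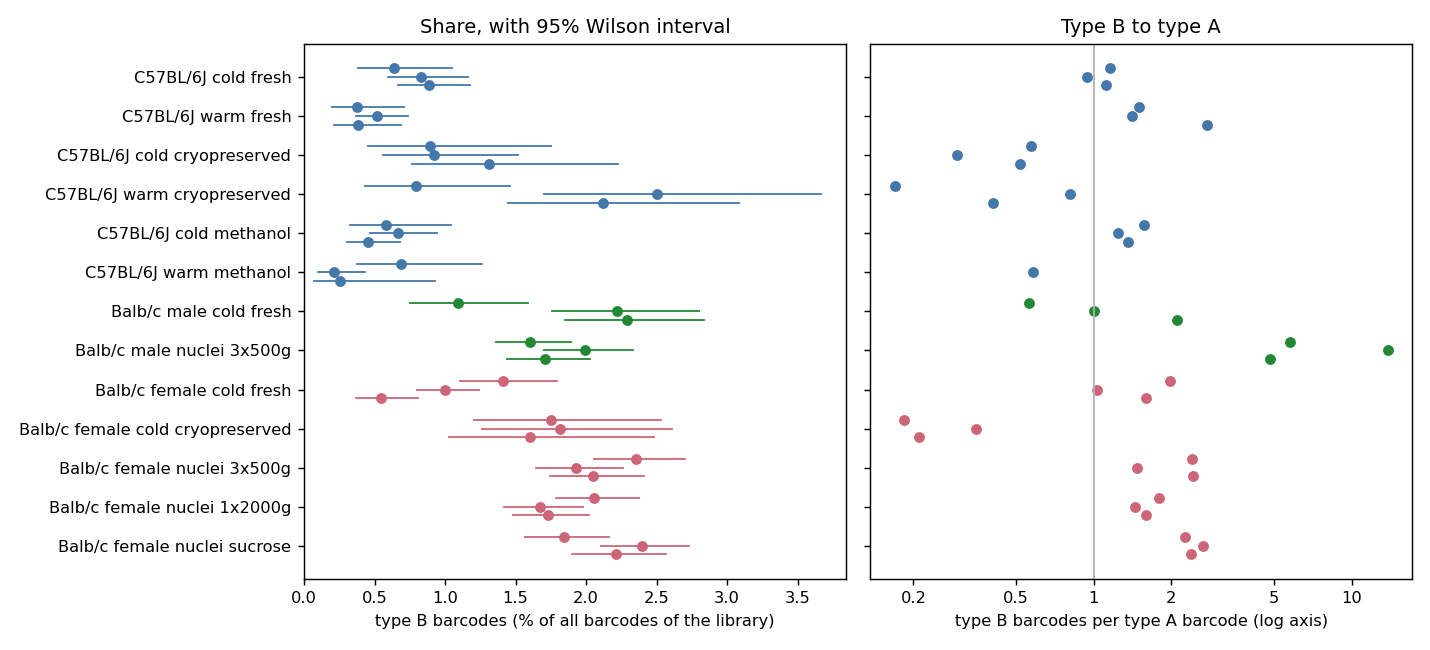
Type B members as percent of the barcodes of each library and type B barcodes per type A barcode, 1 point per library in the 13 groups; lines on the shares are Wilson 95% intervals. Cryopreserved libraries lie above their fresh counterparts in share and below them in the ratio; warm methanol libraries 1 and 3 have no ratio.

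Nuclei and cells from the same experiment were compared next. The authors counted exonic reads alone in cells, but intronic reads as well in nuclei. Nuclei came from flash-frozen kidneys, and they alone had to hold at least 450 UMIs (v2) or 900 (v3). The smallest member held 259 non-mitochondrial UMIs in male cells and 276 in fresh female cells. None of these differences can be told apart from that between nuclei and cells in any value below that sets one against the other. Male nuclei held 1.60%, 1.99% and 1.71% type B barcodes and male cells 1.09%, 2.22% and 2.29%, which overlap. Female 3x500g nuclei held 2.36%, 1.93% and 2.05% and female cells 1.41%, 0.996% and 0.544%, which do not. The mean difference over both was 0.59 on the log2 scale (p = 0.1, adjusted p = 0.207, exact permutation test; the smallest p possible is 0.005). With members required to have 2 or more Slc26a4 UMIs it was 1.16 (adjusted p = 0.0125), after thinning to 500 UMIs 0.30 (adjusted p = 0.602) and without members holding RNA of other segments 0.22 (adjusted p = 0.556). The type B to type A ratio was 5.75, 13.8 and 4.81 in male nuclei and 0.5625, 1 and 2.103 in male cells, and in females 2.4, 1.47 and 2.42 in nuclei and 1.97, 1.03 and 1.6 in cells. Its mean difference of 1.61 had p = 0.015 and adjusted p = 0.05 (exact permutation test), at the threshold. That adjusted p rose above the threshold, to between 0.0667 and 0.1, when any 1 of 6 libraries was left out, namely male nuclei 1, 2 or 3, female cells 2 and female 3x500g nuclei 1 or 3.

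The 3 preparations of female nuclei did not pass the test in either measure. The shares in 1x2000g nuclei were 2.06%, 1.68% and 1.73% and in sucrose nuclei 1.84%, 2.40% and 2.21%, beside 1.93% to 2.36% in 3x500g nuclei (p = 0.261, adjusted p = 0.372, exact permutation test). The ratio was 1.80, 1.45 and 1.60 in 1x2000g nuclei and 2.26, 2.65 and 2.39 in sucrose nuclei (p = 0.104, adjusted p = 0.207, exact permutation test). Leaving out the members with at least 2 UMIs of another segment's markers, the adjusted p was 0.0286 for the share and 0.0119 for the ratio (exact permutation test). That left 36, 32 and 41 members in 1x2000g nuclei, 66, 56 and 62 in 3x500g nuclei and 51, 79 and 52 in sucrose nuclei. RNA of other segments itself differed between preparations, as given below, and its part in these 2 values was not tested.

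Gene levels in type B members were then compared by edgeR's quasi-likelihood test with Benjamini-Hochberg adjustment over all genes tested. Warm dissociation was set against cold in fresh C57BL/6J cells, where 18 of 1656 genes were called (1.09%), 15 of them higher (0.906%) and 3 lower (0.181%). DESeq2 called 5, and leaving out 1 library gave 3 (without cold fresh 2 or 3) to 59 (without warm fresh 2). Warm fresh library 1, with 9 members, was left out of this fit. Jun, a subunit of the AP-1 transcription factor, was at 0.345, 0.223 and 0.218 in cold members and at 11.7 and 18.6 in warm members 2 and 3 (log2 fold change 5.83, SE 0.37, adjusted p = 4.93e-17). Its partner Junb was at 0.345, 0.445 and 0.328 cold and 3.87 and 2.74 warm (3.21, SE 0.46, adjusted p = 8.53e-06). Both warm libraries lay above every cold library for either gene, and Jun was at 4.05 in warm fresh library 1, outside the fit.

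Of the 17 stress genes, 9 could be tested and 5 rose in warm members, namely Btg2, Hspa1a, Jun, Junb and Jund, with a list median of 2.73 beside a median of all genes near 0 (0.00469). The study chose that list on these samples, so it is not independent evidence of a direction. Btg2, an antiproliferative gene, was at 0, 0.668 and 0.437 cold and 3.39 and 1.22 warm (2.73, SE 0.53, adjusted p = 0.00306). Zfp36, which promotes the decay of cytokine mRNA, was at 0, 0 and 0.328 cold and 2.03 and 2.13 warm (3.93, SE 0.86, adjusted p = 0.00647). Calls of single genes were fragile here, since the Hspa1a and Zfp36 calls were each lost in 5 of 10 alternatives and that of Jund in 5 of 11. The summed level of the list was 26.6 to 30.6 in cold fresh members and 77.3 to 90.0 in warm fresh members, all 3 libraries included.

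The cells' transport genes gave few calls with warm dissociation. Wnk1, a kinase that regulates chloride transport, was at 6.04, 6.01 and 3.71 cold and 11.3 and 15.2 warm (1.37, SE 0.24, adjusted p = 0.000454), which made 1 of 4 regulators tested. Spink8 was at 27.3, 25.6 and 33.4 cold and 17.2 and 11.9 warm (-0.89, SE 0.20, adjusted p = 0.0073), a call lost in 6 of 11 alternatives. None of the 2 type B genes tested passed. Hmx2 gave 10.5, 7.12 and 10.6 cold and 8.04 and 1.22 warm (-0.70, SE 0.63, adjusted p = 0.818) and Oxgr1 a difference of 0.26 (adjusted p = 0.869). None of 13 genes of both intercalated forms passed (median 0.06), nor of 14 V-ATPase subunits (median -0.03). Foxi1 differed by -0.42 (adjusted p = 0.722) and Atp6v1b1, the pump subunit B1, by 0.06 (adjusted p = 0.979). With the suspension number as a block, 49 genes were called, 16 of them shared with the 18. Summed connecting tubule markers were 75.6 to 146 cold and 157 to 243 warm, proximal markers 13.6 to 18.8 and 7.76 to 75.3, and none of the 3 genes tested from either list passed. Their part in the result was not tested.

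Methanol fixation of cold suspensions changed 84 of 967 genes in type B members (8.69%), 47 higher (4.86%) and 37 lower (3.83%). DESeq2 called 37, without members holding RNA of other segments 23 were called, and leaving out 1 library gave 20 (without cold fresh 2), 25 (without cold methanol 2) and up to 131 (without cold methanol 1). Malat1 fell from the levels given above by 2.23 on the log2 scale (SE 0.23, adjusted p = 1.82e-05). Neat1, the other nuclear noncoding RNA tested, was at 4.49, 4.90 and 4.59 fresh and 2.43, 1.75 and 1.75 fixed (-1.37, SE 0.29, adjusted p = 0.00748). Hbb-bt, a globin of red blood cells, rose (2.08, adjusted p = 0.00817), as did Kap, an androgen-responsive gene of the proximal tubule, at 10.0, 6.90 and 8.73 fresh and 17.4, 21.6 and 25.3 fixed (1.27, SE 0.20, adjusted p = 0.00234). Type B members held more RNA of proximal tubule genes after fixation, with all 3 proximal markers tested higher and their summed level at 30.9 to 50.2 against 13.6 to 18.8. Summed hemoglobin RNA was 101 to 195 against 22.7 to 99.6. The part of this RNA in the other changes was not tested.

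Intercalated-cell genes that moved with methanol fell. Atp6v1a, the catalytic subunit A of the V-ATPase, was at 14.8, 20.3 and 17.9 fresh and 11.8, 9.37 and 6.77 fixed (-1.05, SE 0.21, adjusted p = 0.00509), the only one of 13 V-ATPase genes tested to pass (median -0.29). Of 13 genes of both forms, 2 fell (median -0.41). These were Hepacam2, an adhesion protein, at 5.87, 7.23 and 6.44 fresh and 3.48, 2.70 and 3.93 fixed (-1.07, SE 0.25, adjusted p = 0.0138), and the transcription factor Tfcp2l1, at 8.97, 11.5 and 7.42 fresh and 6.60, 3.49 and 5.89 fixed (-0.96, SE 0.26, adjusted p = 0.0273). Each of those calls was lost in 6 of 14 alternatives, among them the fits without cold fresh 2 or cold methanol 2. None of 4 type B genes passed (median -0.45). Slc4a9 was at 7.42, 4.12 and 4.37 fresh and 6.60, 3.18 and 3.93 fixed (-0.35, adjusted p = 0.493). Insrr was at 5.35, 6.12 and 4.15 fresh and 4.87, 2.54 and 3.49 fixed (-0.69, adjusted p = 0.139), so its groups overlapped.

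The strongest rise with methanol was that of AY036118, a noncoding transcript, at 0, 0.111 and 0.109 fresh and 6.26, 8.26 and 7.86 fixed (6.12, SE 0.47, adjusted p = 4.15e-07). Guca2b, the peptide uroguanylin, was at 1.73, 1.45 and 0.983 fresh and 4.17, 7.15 and 5.46 fixed (2.01, SE 0.32, adjusted p = 0.00234). Cib1 (2.74) and Cndp2 (1.93) were also among the largest rises, and the largest falls besides Malat1 were those of Ogt (-2.35), Mecom (-2.21), Hras (-2.12) and Dmxl1 (-2.11). The Hras call was lost in 7 of 12 alternatives. For members with Slc4a9, Insrr or Hmx2 48 genes were called, 41 of them among the 84, and the calls of Hbb-bt, Cib1, Mecom, Hras, Hepacam2 and Tfcp2l1 were lost. With the suspension number as a block 104 genes were called, 74 of them among the 84. The warm suspensions could not be fitted, as 1 warm methanol library had 10 members.

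Type B members of cryopreserved suspensions held less RNA of proximal tubule genes. In C57BL/6J cold suspensions 21 of 1009 genes were called (2.08%), 7 higher (0.694%) and 14 lower (1.39%), with cold cryopreserved library 1 (8 members) left out. Kap, at 10.0, 6.90 and 8.73 fresh, was at 0.698 and 0.325 after storage (-3.90, SE 0.45, adjusted p = 0.000146). Miox, the proximal inositol oxygenase, had no UMI in the stored members and was at least 10.5-fold lower, against a floor of 3 UMIs over the group. Spink1 was likewise at least 13.7-fold lower, Ass1 at least 8.93-fold and the phosphate transporter Slc34a1 at least 5.65-fold. Klk1, the kallikrein of the connecting tubule, was at 103, 47.0 and 56.3 fresh and 8.84 and 3.90 stored (-3.34, SE 0.43, adjusted p = 0.00141), 1 of 3 connecting tubule genes tested. Summed proximal markers stood at 13.6 to 18.8 fresh and 0.325 to 0.698 stored. For members with Slc4a9, Insrr or Hmx2 only 4 genes were called, all among the 21, Kap included. The calls of Miox, Spink1 and Klk1 were lost, and Ass1 and Slc34a1 were not tested in that fit.

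Female suspensions gave 36 calls among 2082 genes (1.73%) on cryopreservation, 17 higher (0.817%) and 19 lower (0.913%). With at least 2 Slc26a4 UMIs 10 genes were called, without members holding RNA of other segments 1, and with no filter on low counts 129. Miox was at 6.42, 4.40 and 1.98 fresh and 0.0873, 0.266 and 0.126 stored (-4.71, adjusted p = 0.000471). Gatm, Fbp1 and Lrp2, which the proximal tubule also expresses, fell by 5.30, 4.13 and 3.97 on the log2 scale, and Spink1 was at least 28.4-fold lower. Klk1 was at 108, 75.5 and 124 fresh and 10.9, 13.3 and 0.377 stored, without passing (-3.56, adjusted p = 0.243). Among the rises was Lars2, a mitochondrial leucyl-tRNA synthetase, at 0.267, 0.328 and 0.660 fresh and 2.79, 2.21 and 2.64 stored (2.82, adjusted p = 4.44e-07). Gm26917 and Gm42418 rose in both experiments, by 3.01 and 3.06 in C57BL/6J and 1.79 and 1.69 in female members.

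Of 4 type B genes tested in female members, 2 rose after cryopreservation (median 0.71). Slc4a9 was at 3.70, 2.46 and 2.42 fresh and 6.20, 3.98 and 5.28 stored (0.85, SE 0.23, adjusted p = 0.0473). Insrr was at 3.70, 4.04 and 5.17 fresh and 6.20, 7.17 and 8.30 stored (0.79, SE 0.20, adjusted p = 0.0264), and Hmx2 at 9.04, 10.3 and 11.2 fresh and 14.9, 17.7 and 13.4 stored (0.63, SE 0.17, adjusted p = 0.0532). The stored libraries lay above the fresh ones for each of these genes, although Hmx2 did not pass. Both calls were fragile, since that of Slc4a9 was lost in 10 of 13 alternatives and that of Insrr in 8 of 13, each including the removal of any of 4 libraries. In C57BL/6J members Slc4a9 differed by 0.46 (adjusted p = 0.512) and Insrr by 0.49 (adjusted p = 0.424).

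Other intercalated-cell genes gave few calls on cryopreservation. None of 12 genes of both forms and none of 13 V-ATPase subunits passed in C57BL/6J members, and 0 of 13 and 1 of 14 in female members. The exception was Atp6ap2, the accessory subunit also known as the prorenin receptor, at 13.3, 14.7 and 17.8 fresh and 8.03, 9.30 and 9.93 stored (-0.72, SE 0.17, adjusted p = 0.0189). Guca2a, the peptide guanylin, was at 2.76, 4.78 and 4.91 fresh and 14.9 and 8.13 stored in C57BL/6J members (1.48, SE 0.30, adjusted p = 0.0139), a call lost in 5 of 12 alternatives, members with Slc4a9, Insrr or Hmx2 among them. None of 4 stress genes in C57BL/6J and none of 12 in female members passed. Warm cryopreserved members, which had no expression comparison of their own, held a summed stress level of 203 to 237 per 10000, beside 77.3 to 90.0 in warm fresh members. With the suspension number as a block, 48 genes were called in C57BL/6J members, including all 21.

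**Figure D4:**
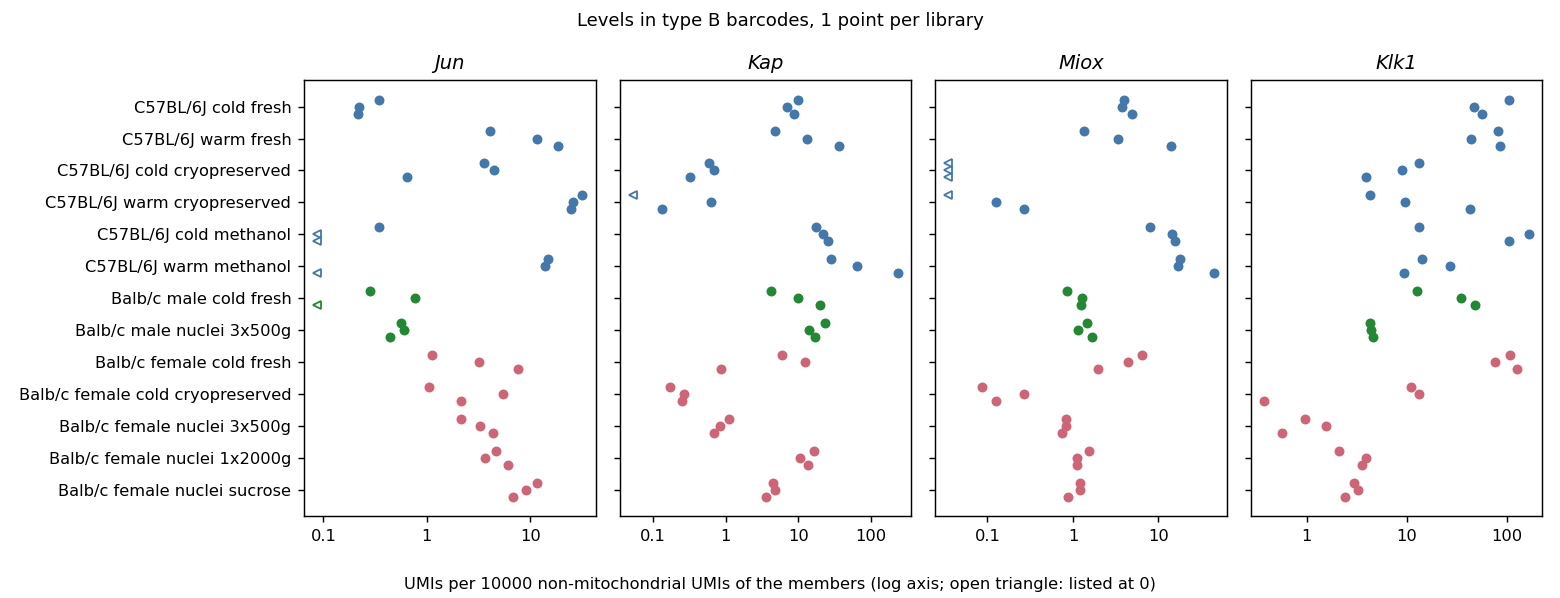
Levels in UMIs per 10000 non-mitochondrial UMIs of the type B members, on a log axis, of Jun, Kap, Miox and Klk1 in the 13 groups, with 1 point per library and open triangles at 0. Jun ran from 4.05 to 18.6 in warm fresh and from 24.6 to 31.9 in warm cryopreserved libraries, against at most 0.345 in cold fresh libraries, and Kap fell from between 6.90 and 10.0 in cold fresh to between 0.325 and 0.698 in cold cryopreserved libraries 2 and 3.

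Nuclei differed from cells in most genes. In male Balb/c type B members 2177 of 2893 genes were called (75.3%), 1185 higher (41%) and 992 lower (34.3%) in nuclei, and in female members 5655 of 7451 (75.9%), 3281 higher (44%) and 2374 lower (31.9%). The median of all genes was shifted by 0.38 and 0.47 on the log2 scale, so changes of single genes are to be read against those shifts, and the counts of the lists below against those shares of all genes. Slc4a9 was far higher in nuclei, at 3.69, 3.39 and 9.89 in male cells and 22.1, 24.1 and 29.2 in male nuclei (2.44, SE 0.33, adjusted p = 1.48e-10). In females it was at 3.70, 2.46 and 2.42 in cells and 37.4, 41.7 and 36.9 in 3x500g nuclei (3.68, SE 0.17, adjusted p = 1.34e-19). Insrr was at 5.10, 5.59 and 9.39 in male cells and 12.4, 14.3 and 11.7 in male nuclei (1.16), and at 12.1, 13.2 and 13.8 in female nuclei (1.59), above every female cell library.

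Hmx2 was the one of Slc4a9, Insrr and Hmx2 that was lower in nuclei. Male cells were at 26.1, 16.8 and 12.9 and male nuclei at 7.70, 10.2 and 9.11 (-0.81, adjusted p = 0.0104), a call lost without any 1 of the 3 nuclear libraries. Female cells were at 9.04, 10.3 and 11.2 and female nuclei at 2.87, 7.49 and 5.54 (-0.99, adjusted p = 0.0189), a call lost without female cells 3. Fgfr2, whose model spans the Hmx2 locus on the other strand, had no UMI in male cells and stood at 9.27, 9.90 and 9.99 in male nuclei, at least 62.7-fold higher. Oxgr1 differed by 0.26 in males (adjusted p = 0.522) and rose by 1.01 in females (SE 0.21, adjusted p = 5.66e-05). Of 4 type B genes tested, 2 rose and 1 fell in males (median 0.71) and 3 rose and 1 fell in females (median 1.30).

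V-ATPase subunits split. In males 4 of 17 rose and 9 fell (median -1.25), and in females 5 of 19 rose and 10 fell (median -1.40). Among those lower in nuclei, Atp6v1f was at 19.9, 20.7 and 17.8 in male cells and 1.70, 0.905 and 1.68 in male nuclei (-3.58), and at 25.8, 22.7 and 23.6 in female cells and 0.457, 0.625 and 0.523 in female nuclei (-5.54, SE 0.18, adjusted p = 1.3e-23). Atp6v1g1 fell by 3.84 and 5.06 and Atp6v0e by 2.90 and 3.63 in males and females. Atp6v0a4, the kidney form of the membrane subunit a, was instead at 4.25, 4.15 and 1.48 in male cells and 10.98, 11.7 and 10.4 in male nuclei (1.83, SE 0.33, adjusted p = 4.24e-07). Females gave 7.80, 6.13 and 10.6 in cells and 12.5, 15.6 and 14.1 in nuclei (0.78, SE 0.16, adjusted p = 6.38e-05). Atp6v0a1 rose by 1.93 and 2.02. The female rises of Atp6v1c2 (0.38) and Atp6v1h (0.42) were below the median shift. Atp6v1b1 differed by 0.06 (adjusted p = 0.855) and -0.28 (adjusted p = 0.099).

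Car12 and Car2, carbonic anhydrases that supply bicarbonate and protons, changed in opposite directions. Car12, a membrane enzyme, was at 17.02, 11.4 and 13.8 in male cells and 23.3, 32.0 and 23.0 in male nuclei (1.14, adjusted p = 0.000437). In females it was at 8.29, 9.84 and 9.02 in cells and 28.4, 25.3 and 20.4 in nuclei (1.39, adjusted p = 4.95e-10). Car2, the cytosolic enzyme, was at 11.6, 14.7 and 12.1 in male cells and 3.72, 3.98 and 4.45 in male nuclei (-1.50), and at 25.04, 22.7 and 22.1 in female cells and 4.47, 6.62 and 6.21 in female nuclei (-2.07). Groups did not overlap for either gene. A further carbonic anhydrase, Car15, fell in females from 0.401, 1.02 and 0.880 to 0.0286, 0.0481 and 0.0490 (-4.17, SE 0.47, adjusted p = 1.22e-09) and differed by -0.47 in males (adjusted p = 0.311). Foxi1 was at 5.67, 5.42 and 4.70 in male cells and 3.03, 3.38 and 2.92 in male nuclei without passing (-0.59, adjusted p = 0.0701), and fell in females (-1.37, SE 0.37, adjusted p = 0.012). Rhbg, an ammonia transporter, fell in females from 4.77, 3.35 and 3.74 to 0.872, 0.770 and 0.768 (-2.35) and differed by -0.34 in males (adjusted p = 0.397). Over the list of both forms, 3 of 13 rose and 1 fell in males, beside 41% and 34.3% of all genes, and 5 of 13 rose and 6 fell in females, beside 44% and 31.9%.

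Of the regulators of salt transport, 5 of 8 were higher and 1 lower in male nuclei (median 1.11) and 7 of 10 higher and 1 lower in female nuclei (median 0.82), where 41% and 44% of all genes were higher. Nr3c2, the mineralocorticoid receptor, was at 5.93, 7.36 and 6.27 in male nuclei and at 10.6, 11.1 and 12.0 in female nuclei, against 0 to 0.695 over all cell libraries (5.38, SE 0.54, adjusted p = 3.45e-16 in males; 5.66, SE 0.26, adjusted p = 4.51e-20 in females). Nedd4l, a ubiquitin ligase that removes ENaC, was at 1.70, 1.19 and 3.21 in male cells and 14.9, 16.1 and 14.3 in male nuclei (3.22). In females it was at 1.87, 1.64 and 2.31 in cells and 30.3, 28.3 and 29.4 in nuclei (3.92). The 1 regulator that fell was Hsd11b2, which protects Nr3c2 from glucocorticoids, at 12.2, 7.88 and 3.21 in male cells and 0.442, 0.302 and 0.292 in male nuclei (-4.24). Its female values were 3.16, 3.18 and 4.73 in cells and 0.257, 0.225 and 0.310 in nuclei (-3.77). Hsd11b2 averaged 34.8 in principal and 4.73 in type B barcodes of 22 cell libraries, and 5.26 and 0.307 in 12 nuclear libraries. The part of principal cell RNA in its fall was not tested.

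The 5 largest fitted rises in male nuclei were those of Fgfr2, given above, Snx29, Sugct, Nrg1 and Pde4b. Pde4b was at 0, 0.0847 and 0.247 in male cells and 26.1, 23.7 and 24.8 in male nuclei (7.87), and at 0.267, 0.131 and 0.110 in female cells and 33.4, 37.3 and 41.5 in female nuclei (7.64). Snx29, Sugct and Nrg1 had no UMI in male cells and were at least 25.1-fold, 21.0-fold and 17.6-fold higher, and these rose in females by 4.24, 7.52 and 4.05 on the log2 scale. The 5 largest in females were others. Cacnb2, a calcium channel subunit, was at least 52.3-fold higher, Prkg1, a cGMP-dependent kinase, at least 45.7-fold, Pdgfd at least 39.6-fold, Camkmt at least 37.4-fold and Abtb2 at least 28.4-fold. Of these, Pdgfd rose by 4.35 in males and the others were not tested there. The largest falls in males were those of Rpl35 (-7.52), Rpl21 (-7.12), Sec61g (-7.07), Rpl15 (-6.57) and Fau (-6.50). In females they were those of Commd1 (-8.19), Gapdh (-8.10), Rpl21 (-7.59), Gm10709 (-7.59) and Fau (-7.32). Malat1 rose by 1.83 and 1.21 and Neat1 by 2.47 and 1.82.

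RNA of connecting tubule and principal cell genes was lower in nuclei. Klk1 was at 12.5, 34.5 and 47.2 in male cells and 4.29, 4.40 and 4.59 in male nuclei (-2.65), and at 108, 75.5 and 124 in female cells and 0.972, 1.56 and 0.572 in female nuclei (-6.67, adjusted p = 4.22e-06). All 3 connecting tubule markers tested fell in both experiments, with summed levels of 33.7 to 66.0 and 4.67 to 5.25 in male cells and nuclei and 97.2 to 184 and 1.39 to 2.61 in female cells and nuclei. Principal cell markers fell in 3 of 3 and 3 of 5 genes. Distal convoluted tubule markers were higher instead, in 1 of 1 gene tested in males and 2 of 2 in females (median 2.76). Slc12a3, the sodium-chloride cotransporter of that segment, was at 0, 0 and 0.494 in male cells and 1.89, 3.38 and 3.57 in male nuclei (4.78), and its female call (2.73, adjusted p = 0.0431) was lost in 7 of 12 alternatives. Of the 2 thick ascending limb markers Slc12a1 rose in both experiments and Umod fell in females. Proximal markers instead rose in 4 of 5 genes in males, with summed levels of 5.67 to 24.97 in cells and 29.4 to 39.1 in nuclei, and fell in 2 of 5 in females. Their part in the nuclear changes was not tested. Of the stress genes, 4 of 5 fell in males and 6 of 15 in females, beside 34.3% and 31.9% of all genes, among them Hsp90ab1 (-3.58 and -5.39) and Hspa8 (-2.43 and -4.38), and none rose.

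**Figure D5:**
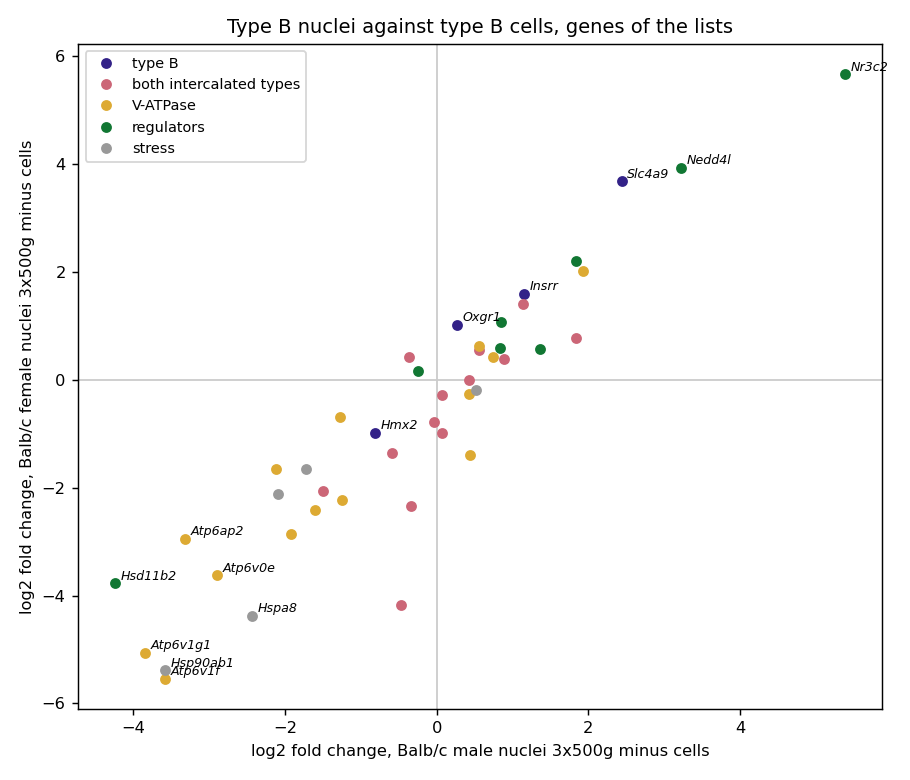
Log2 fold change of nuclei against cells in male (horizontal axis) and female (vertical axis) type B members for 44 listed genes tested in both, 1 point per gene and coloured by list. Both values have the same sign for 36 genes; Nr3c2 and Slc4a9 lie high on both axes, and the V-ATPase gene Atp6v1f lies low on both.

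Female nuclei prepared in other ways were set against the 3x500g nuclei, which served as reference in both comparisons. In 1x2000g nuclei 550 of 8179 genes were called (6.72%), 430 higher (5.26%) and 120 lower (1.47%), and in sucrose nuclei 1118 of 8073 (13.8%), 669 higher (8.29%) and 449 lower (5.56%). Without members holding RNA of other segments the counts were 148 and 299, and DESeq2 called 242 and 483. Leaving out 1 library gave as few as 299 (without 1x2000g 3) and 648 (without sucrose 2). Insrr was at 12.1, 13.2 and 13.8 in 3x500g nuclei and at 9.39, 8.21 and 7.83 in 1x2000g nuclei (-0.51, SE 0.12, adjusted p = 0.00912). It was at 6.97, 7.03 and 7.32 in sucrose nuclei (-0.71, SE 0.10, adjusted p = 9.38e-05), so both other groups lay below every 3x500g library. Slc4a9 was at 37.4, 41.7 and 36.9, at 30.2, 29.3 and 24.0 in 1x2000g nuclei (-0.36, SE 0.11, adjusted p = 0.0509) and at 27.6, 27.2 and 27.1 in sucrose nuclei (-0.34, SE 0.086, adjusted p = 0.0113). Hmx2 differed by 0.04 (adjusted p = 0.968) and 0.29 (adjusted p = 0.658), and Oxgr1 by -0.06 (adjusted p = 0.869) and -0.23 (adjusted p = 0.257). Of 5 type B genes tested, 1 was lower in 1x2000g nuclei (median -0.15) and 2 in sucrose nuclei (median -0.23).

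Of 18 V-ATPase genes tested, 5 were higher in 1x2000g nuclei (median 0.27) and 13 did not pass, and in sucrose nuclei 9 were higher, 1 was lower and 8 did not pass (median 0.36). Atp6v1f rose by 1.26 and 1.08 and Atp6v1g1 by 1.45 and 1.17. Atp6v1b1 was at 6.36, 7.68 and 6.76 in 3x500g nuclei, 7.34, 9.13 and 7.76 in 1x2000g nuclei (0.33, adjusted p = 0.112) and 9.94, 11.6 and 13.0 in sucrose nuclei (0.90, SE 0.12, adjusted p = 2.58e-05). Bsnd (barttin), a subunit of chloride channels, was lower in sucrose nuclei (-0.70, adjusted p = 0.0141). Rhcg, an ammonia transporter, was at 4.59, 3.88 and 3.54 in 3x500g nuclei and 2.82, 2.295 and 2.39 in 1x2000g nuclei (-0.57, adjusted p = 0.0167) and differed by -0.20 in sucrose nuclei (adjusted p = 0.377). The kinase gene Wnk4 was lower in sucrose nuclei (-0.95, adjusted p = 0.000985), among 5 of 10 regulators that fell there (median -0.26).

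Of the stress genes, 9 of 15 tested were higher in sucrose nuclei (median 1.15) and 4 of 16 in 1x2000g nuclei (median 0.66), where 12 did not pass. Hsp90ab1, a cytosolic chaperone, was at 0.429, 0.417 and 0.343 in 3x500g nuclei, 0.817, 0.629 and 0.828 in 1x2000g nuclei (1.05) and 1.90, 2.32 and 1.55 in sucrose nuclei (2.44, adjusted p = 8.91e-09). Btg2 was at 3.84, 3.06 and 3.28, then 5.75, 5.29 and 7.36 in 1x2000g nuclei (0.96) and 12.3, 8.30 and 7.44 in sucrose nuclei (1.62). Jun was at 2.16, 3.29 and 4.34 in 3x500g nuclei and 11.5, 9.11 and 6.75 in sucrose nuclei (1.65, adjusted p = 0.0228), a call lost without 3x500g library 2 or sucrose library 2. The summed level of the list was 18.6 to 24.96 in 3x500g, 22.7 to 37.1 in 1x2000g and 34.2 to 57.3 in sucrose nuclei.

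Proximal RNA moved with the preparation as well. Kap was at 1.13, 0.850 and 0.702 in 3x500g nuclei, 16.2, 10.6 and 13.7 in 1x2000g nuclei (4.02, SE 0.21, adjusted p = 1.37e-07) and 4.53, 4.77 and 3.62 in sucrose nuclei (2.42, SE 0.16, adjusted p = 1.59e-09). Of 5 proximal markers, 2 were higher in each preparation, with summed levels of 8.15 to 12.0 in 3x500g, 17.02 to 25.2 in 1x2000g and 9.57 to 13.1 in sucrose nuclei. Malat1 rose by 0.76 (adjusted p = 5.75e-07) and 1.17 (adjusted p = 1.44e-11). Besides Kap, the largest rises in 1x2000g nuclei were those of the globin Hbb-bs (3.59), 1700047A11Rik (2.93), Grpel1 (2.41) and Scd1 (2.39), and the largest falls those of Tspan5 (-2.21), Hars2 (-1.96), Glis1 (-1.73), Kynu (-1.68) and Slc2a13 (-1.62). In sucrose nuclei Trim5 (3.64), Mgp (3.29) and Eif3j2 (2.46) rose most, and Lzts3 (-1.89), Ccdc120 (-1.82), Gm38393 (-1.80), Mief2 (-1.69) and Afm (-1.66) fell most. The part of proximal and globin RNA in the other changes was not tested.

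Whether type B cells changed more or less than type A cells of the same libraries was tested as an interaction with the library as a block. Between nuclei and cells 6 of 1857 genes differed in this way in males (0.323%) and 35 of 7468 in females (0.469%), with 21 differences above 0 (0.281%) and 14 below (0.187%). Slc4a9 rose more in type B, where female cells averaged 2.86 and nuclei 38.7, than in type A, with 1.78 and 11.3 (difference of log2 changes 1.14, SE 0.23, adjusted p = 0.00164). The call was lost without female cells 1. Oxgr1 was at 1.30 and 2.83 in type B and 2.88 and 2.93 in type A (1.13, adjusted p = 0.0298), a call lost in 6 of 9 alternatives. Spp1 fell more in type B, from 33.4 to 1.31 against 6.35 to 1.01 in type A (-1.99, adjusted p = 1.58e-07). Gpx3, a secreted glutathione peroxidase, went from 42.3 to 6.20 in type B and from 12.5 to 6.52 in type A (-1.77, adjusted p = 8.90e-13). Among female nuclei, 0 of 8831 genes differed for 1x2000g against 3x500g (0%, edgeR; 470 at an unadjusted p under 0.05) and 7 of 8894 (0.0787%) for sucrose, 3 above 0 (0.0337%) and 4 below (0.045%).

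Bulk RNA-seq of the same kinds of sample gave measurements that the rule had not used. In bulk, fewer cells of a type and less RNA per cell cannot be told apart. Read totals were 5969212 to 8184923 in C57BL/6J libraries and 21984996 to 31093949 in female libraries. Warm suspensions against cold gave 1285 of 14102 genes called (9.11%), 785 higher (5.57%) and 500 lower (3.55%). Slc26a4 was at 84.4, 84.6 and 80.2 CPM (reads scaled to the library's total) cold and 159, 115 and 155 warm (0.77, SE 0.10, adjusted p = 0.000409), and Slc4a9 at 74.4, 77.8 and 65.2 cold and 134, 129 and 148 warm (0.91, SE 0.080, adjusted p = 2.28e-06). Insrr was at 33.8, 38.7 and 32.5 cold and 55.1, 50.8 and 67.6 warm (0.71, SE 0.11, adjusted p = 0.000621). Warm libraries lay above cold ones for all 3 genes.

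Of 7 type B genes tested in the bulk suspensions 5 rose on warm dissociation (median 0.71) and none fell, with Oxgr1 (0.92, adjusted p = 1.99e-05) and Slc4a8 (0.64, adjusted p = 0.00633) among them. Hmx2 differed by 0.35 (SE 0.52, adjusted p = 0.769). The rise was not particular to type B, as 4 of 8 type A genes (median 0.38) and 11 of 15 genes of both forms (median 0.69) rose. Aqp6 rose by 1.01 (adjusted p = 0.0076), Kit by 0.91 (adjusted p = 0.0077), Foxi1 by 1.02 (adjusted p = 0.00106), Atp6v1b1 by 0.92 (adjusted p = 0.000745), Rhcg by 1.11 and Rhbg by 1.28, whereas Slc4a1 differed by 0.35 (adjusted p = 0.0999). All 4 connecting tubule and both thick ascending limb markers rose too, and of the stress genes 14 of 17 rose. Podocyte markers fell in 2 of 2, endothelial in 2 of 4 and leukocyte in 3 of 4 genes. The share of type B barcodes in the fresh 10x libraries had been lower in warm suspensions.

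Female whole kidney against the cold suspension gave 3326 of 16538 genes called (20.1%), 2004 higher (12.1%) and 1322 lower (7.99%), and none of 8 type B genes was among them (median -0.31). Slc26a4 was at 137, 133 and 135 CPM in whole kidney and 219, 154 and 135 in suspension (-0.33, SE 0.18, adjusted p = 0.29), and Slc4a9 at 107, 108 and 105 and 245, 150 and 135 (-0.72, SE 0.25, adjusted p = 0.126). Suspension library 1 was the highest for both genes. Insrr differed by -0.56 (adjusted p = 0.133). Of 16 genes of both forms 5 were lower in whole kidney (median -0.33), among them Rhbg (-0.70, adjusted p = 0.00169) and Rhcg (-0.64, adjusted p = 0.0413). All 4 connecting tubule markers were lower in whole kidney. Of 5 proximal markers 3 were higher, with Kap at 2.16 and Lrp2 at 0.99 on the log2 scale, and Slc34a1 (-0.40) and Miox (-0.23) were lower. Endothelial markers were higher in 3 of 4 genes, and leukocyte markers were lower in 4 of 4, distal convoluted tubule markers in 2 of 3 and principal cell markers in 2 of 5. The whole kidneys had been flash-frozen and the suspensions had not, and freezing cannot be told apart from dissociation here.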

How the data were processed

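The authors processed the 10x reads with Cell Ranger 2.1.1, called cells with EmptyDrops, removed barcodes above 50% mitochondrial RNA and genes in fewer than 10 cells of a library, and counted exonic reads for cells but intronic ones too for nuclei. Barcodes outside a set range of gene numbers were also removed. Nuclei, unlike cells, further had to hold at least 450 UMIs (v2) or 900 (v3). The deposited values are raw UMI counts. For bulk libraries they deposited read counts per gene (STAR 2.6.1a, featureCounts). Members' counts were summed per library, and edgeR 4.0.16 (R 4.3.3, TMM, filterByExpr, quasi-likelihood test, Benjamini-Hochberg, adjusted p of 0.05) was fitted, after recovery was tested on simulated data. The 4 genes of the rule and mitochondrial genes were left out of the fits on members. Shares were log2 values with 0.5 added to counts and 1 to barcodes, and ratios log2 values with 0.5 added to both counts. Their permutation tests were run in Python 3.11.15 with numpy 2.4.6. Alternatives used DESeq2 1.42.0, other size factors, filters and members. Doublets were not called. Named were the genes of fixed lists and, per comparison, the 5 called genes with the largest change each way. Members and lists were chosen with earlier results of these data known. File headers give C57BL/6J suspensions numbers that fresh, cryopreserved and methanol libraries share, so these are aliquots of 1 suspension and the number served as a block. Whether cold and warm suspensions of 1 number share an animal is not given in the sources used here. A few genes are not reported here. Depth is given with the results.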

Additional observations from a re-analysis of the deposited data

Results flagged for a closer look

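Type B and type A members changed differently between nuclei and cells in a few genes, by the interaction test of edgeR with Benjamini-Hochberg adjustment. In males the type B change exceeded the type A change on the log2 scale by 7.59 for Tox3 and 7.07 for Nudt4, genes with no UMI in type A nuclei, so that these sizes depend on the prior count. It exceeded it by 4.12 for Phactr1, by 2.76 for Aqp2 (type B 6.10 in cells and 0.966 in nuclei, type A 20.1 and 0.761) and by 2.296 for Klk1 (type B 31.4 and 4.43, type A 40.8 and 1.72). The median over all genes was 0.78 in this fit, all 6 calls were above 0, and at an unadjusted p under 0.05 there were 265 genes above 0 and 6 below. With RLE size factors 1 gene was called higher and 2 lower. Of the named genes, the Nudt4 call was kept in 8 of 9 alternatives and the Aqp2 call in 2 of 9.

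In females the difference was 5.70 for Spag5, which had no UMI in type B cells, so that this size depends on the prior count, and whose call was kept in 1 of 9 alternatives, 2.99 for Bub3, 2.37 for Kctd12, 2.33 for Trove2, 1.70 for Actb, 1.14 for Slc4a9 and 1.13 for Oxgr1. It was -3.28 for Napsa, -2.51 for Pcolce (type B 4.26 in cells and 0.241 in nuclei, type A 0.839 and 0.294), -2.26 for Spink8 (type B 24.1 and 0.555, type A 5.00 and 0.558), -1.99 for Spp1, -1.77 for Gpx3 and -1.46 for Umod (type B 5.05 and 2.34, type A 1.43 and 2.03). For sucrose against 3x500g nuclei the difference was 2.12 for Bglap3, 1.04 for Rbms3, 0.65 for Alcam, -2.09 for Slc7a7 and -1.90 for Cacnb4, and each of these 5 calls was lost without at least 4 of the 6 libraries in turn.

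The type B to type A ratio moved in opposite directions in 2 pairs of comparisons, in which every library of one group lay beyond the other group, and neither difference was tested. Warm against cold it was higher by 0.70 in fresh libraries and differed by -1.19 in methanol libraries. Methanol against fresh it was higher by 0.36 in cold suspensions and differed by -1.53 in warm suspensions. Both negative values rest on 1 warm methanol library with 7 members.

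Balb/c male whole kidney, measured in bulk, entered no comparison. Slc26a4 was at 88.7, 94.97 and 73.4 CPM (reads scaled to the library's total) and Insrr at 47.7, 27.5 and 32.9, in libraries of 7879117, 2326998 and 4888491 reads.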

How the results depend on the processing

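Over 192 alternatives for the shares and ratios 171 kept direction and call, and over 156 alternatives for counts of genes 102 stayed within 1.5 times. Of 4389 alternatives for 392 calls of named genes 3800 kept the call, 589 lost it and 0 turned its direction. The causes of the changes below were not tested, beyond what an alternative's smaller number of members, genes or libraries entails. Several fits used few members. Members with UMIs of Slc4a9, Insrr or Hmx2, the suspension block, the proximal tubule total and the treatment of removed genes were added after the data were seen.

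For the warm against cold difference in the type B to type A ratio, thinning to 500 UMIs gave 0.26, at least 2 Slc26a4 UMIs 0.37, members with 1 of the 3 genes 0.59, type A counted as 0 where Slc4a1 was removed 0.67, and leaving out 1 library -0.41 to 0.24, the last without warm methanol 2. The warm share difference was 0.16 for members with 1 of the 3 genes and -0.44 to -0.12 without 1 library. For methanol the ratio difference of -0.59 became 0.78 with type A counted as 0 and -0.67 to 0.36 without 1 library (0.36 without warm methanol 2), and the share difference -0.58 to -0.16. For cryopreservation the share difference was 0.62 with proximal barcodes left out of the total and 0.97 to 1.26 without 1 library, and the ratio difference -2.17 to -1.81. For nuclei the share difference was 1.16 with at least 2 Slc26a4 UMIs, 0.79 (adjusted p = 0.05) for members with 1 of the 3 genes, 0.98 (adjusted p = 0.05) with proximal barcodes left out, 0.30 after thinning, 0.22 without members holding RNA of other segments and 0.40 to 0.74 without 1 library, and the ratio difference 2.93 with at least 2 UMIs, 2.27 after thinning and 1.38 to 1.85 without 1 library. Without members holding RNA of other segments, the sum of squares between the 3 nuclear preparations was 1.53 for the share and 1.24 for the ratio, and without 1 library it was 0.0426 to 0.151 and 0.324 to 0.646.

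With the suspension number as a block, aliquots of 1 suspension gave 104 calls for methanol (60 higher, 44 lower) and 48 for C57BL/6J cryopreservation (17 and 31), beside 84 and 21 without the block. Warm and cold suspensions were separate digestions for which the sources used here give only a shared number, and that block gave 49 calls (36 and 13), beside 18. For the methanol and cryopreservation shares and ratios the block changed no call. The other comparisons shared no suspension number. The paper describes the female fresh and cryopreserved libraries as aliquots too, but without a shared number they were left unpaired. DESeq2 called 5 genes for warm dissociation, 37 for methanol, 242 for 1x2000g and 483 for sucrose. Requiring 2 Slc26a4 UMIs gave 54 for methanol, 8 and 10 for C57BL/6J and female cryopreservation. Without members holding RNA of other segments the counts were 23 for methanol, 1 for female cryopreservation, 1212 and 2891 for male and female nuclei, 148 for 1x2000g and 299 for sucrose. Members with 1 of the 3 genes gave 48 for methanol and 4 for C57BL/6J cryopreservation. No filter on low counts gave 41 and 129 for C57BL/6J and female cryopreservation. For the interaction, RLE size factors gave 3 genes in males (1 higher, 2 lower) and 25 in females (8 and 17, against 21 and 14), no filter 2 in males, 5 for 1x2000g and 18 for sucrose, and genes at 0 in a library kept 16 in males.

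Leaving out 1 library, warm dissociation gave 3 to 59 calls (3 without cold fresh 2 or 3, 59 without warm fresh 2), methanol 20 to 131 (20 without cold fresh 2, 25 without cold methanol 2, 131 without cold methanol 1) and C57BL/6J cryopreservation 9 to 50 (9 without cold fresh 1, 40 and 50 without cold cryopreserved 2 and 3). Female cryopreservation gave 25 to 51, male nuclei 2090 to 2448, female nuclei 5141 to 5915, 1x2000g 299 to 609 (316 without 3x500g 3, 299 without 1x2000g 3) and sucrose 648 to 1114 (675 without 3x500g 3, 709, 648 and 718 without sucrose 1, 2 and 3). The interaction gave 0 to 9 in males (1, 1 and 0 without cells 1, 2 and 3, 2 and 9 without nuclei 1 and 3), 20 to 32 in females (20 without cells 1 or 2, 22 without 3x500g 3), 0 to 7 for 1x2000g (7 and 5 without 3x500g 1 and 2, 2 and 4 without 1x2000g 2 and 3) and 0 to 18 for sucrose (18 and 15 without 3x500g 1 and 2, 0 and 3 without sucrose 1 and 2). Bulk counts were 879 to 991 for warm dissociation and 2436 to 3187 for whole kidney. Not run, for want of libraries with 10 members, were the fits of warm dissociation with 2 Slc26a4 UMIs or without RNA of other segments, of C57BL/6J cryopreservation without RNA of other segments, of methanol in warm suspensions and of the interaction with warm dissociation.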

Other observations

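Bcap29, a gene for a protein of the endoplasmic reticulum, is the neighbour of Slc26a4 on chromosome 12 and lies on the same strand with 31.0 kb between both gene models. It was chosen after its values were seen. In cell libraries its mean level was 0.862 UMIs per 10000 in type B members and 0.123 in type A barcodes, higher in type B in 19 of 20 libraries. In female 3x500g nuclei the levels were 1.12 and 0.246.

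In the Balb/c male whole kidney bulk libraries, Slc4a9 was at 64.1, 72.2 and 53.8 CPM, Oxgr1 at 22.1, 9.88 and 18.002 and Foxi1 at 26.3, 10.7 and 25.6. Library 2, which had the fewest reads, was the lowest for Oxgr1 and Foxi1 and the highest for Slc4a9.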
